A study of Saccharomyces cerevisiae with 18 samples.

Results

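Translation machinery associated (TMA) genes of Saccharomyces cerevisiae are described here across strains and media. The 9 genes are TMA7, TMA10, TMA16, TMA17, TMA19, TMA22, TMA23, TMA46 and TMA108. They were taken by name, as the rows whose first alias is a TMA symbol, without TMA20 and TMA64, which the study deleted. All 9 were found among 6713 open reading frames and 7126 rows of the count table, and all 9 passed the filter on low counts in both assays.

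RNA-Seq and ribosome profiling (Ribo-Seq) were carried out on 9 lysates to find how loss of TMA20, TMA64 or both changes mRNA levels and translation in rich and minimal medium. Every strain derives from BY4741, a laboratory strain of genotype MATa his3Δ1 leu2Δ0 met15Δ0 ura3Δ0, so the controls carry these auxotrophic markers too. Δtma20 carries tma20Δ::KanMX4, Δtma64 carries tma64Δ::KanMX4, and ΔΔtma20tma64 combines tma20Δ::KanMX4 with tma64Δ::HygMX4. Cells grew exponentially at 30 °C in YPD (rich medium with yeast extract, peptone and glucose) or SD (minimal medium with yeast nitrogen base and glucose). The sample labels describe SD with nitrogen base lacking amino acids and name no supplement, while the study's methods add complete amino acid supplementation. Which holds was not settled here, and it bears on every SD against YPD value. All cultures received cycloheximide, an elongation inhibitor, at 100 µg/ml for 3 min before harvest. Only wt in YPD was cultured as 2 biological replicates (WT1 and WT2), and the remaining groups are 1 lysate each. Thus 5 lysates came from YPD and 4 from SD, and 4 lacked TMA20 while 5 had it.

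Reads on open reading frames numbered 5608491 to 11388027 per library for mRNA and 1668588 to 23532664 for footprints. Lowest in footprint depth were Δtma20 in SD, and then wt in SD with 2337313 reads. Reads on no annotated feature made up 18.8% to 23.6% of uniquely mapped RNA-Seq reads in YPD and 28.3% to 39.1% in SD. This share moves with the medium, and its part in the results was not tested. In lysates of strains lacking TMA20 the gene had 0 to 16 reads, and TMA64 had 0 to 7 where it was deleted. LEU2, MET17 and URA3, which BY4741 lacks, had at most 2 reads in any library. HIS3 had 241 to 3096 reads in every library. Its his3Δ1 allele removes only an inner stretch of the gene, so these reads check nothing. Levels below are CPM, read counts scaled to library size by trimmed mean of M values (TMM), and the footprint to mRNA ratio is the quotient of both CPM in 1 lysate.

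TMA proteins were named for their presence in ribosomal complexes isolated from yeast. The name marks that shared property and not a shared task. Tma20 (mammalian MCT-1) pairs with Tma22 (DENR), and Tma64 (eIF2D) resembles this pair within 1 chain. All 3 act on the small ribosomal subunit after termination, where they take part in its release from mRNA. Other members reach the ribosome at different stages. Tma16 and Tma23 belong to ribosome assembly, Tma46 partners the GTPase Rbg1, Tma108 binds nascent chains of selected mRNAs, and Tma17 is a chaperone of proteasome assembly. Tma19 is the yeast homolog of mammalian TCTP. Tma10 is a paralog of Stf2, a factor linked to the inhibitor of mitochondrial ATP synthase. Tma7 is a small ribosome-associated protein whose role is not known.

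On the R64 assembly TMA7 and TMA10 share chromosome XII, and TMA16 and TMA46 share chromosome XV. TMA16 (YOR252W) is at chrXV:803667-804203 on the plus strand, TMA46 (YOR091W) at chrXV:493433-494470 plus, TMA22 (YJR014W) at chrX:461829-462425 plus and TMA23 (YMR269W) at chrXIII:804456-805091 plus. TMA17 (YDL110C) is at chrIV:264512-264964 on the minus strand, TMA19 (YKL056C) at chrXI:334412-334915 minus and TMA108 (YIL137C) at chrIX:89948-92788 minus. Each member has 1 coding exon, overlaps no other RefSeq gene, and holds only 28-base windows without a second exact match in the genome. Copies with mismatches and shorter fragments were not checked. Coding lengths ran from 195 bases (TMA7) to 2841 bases (TMA108), against a median of 1197 over all open reading frames found in RefSeq. Stop codons were TAA in 6 members, TGA in TMA23 and TMA108, and TAG in TMA46. Over 5994 nuclear open reading frames the shares were 47.4% for TAA, 29.6% for TGA and 23.0% for TAG. The coding sequences of TMA7 and TMA10 are shown because these are the shortest members and their footprints and mRNA changed by unequal amounts between media. Sequences are from RefSeq R64, coding strand, 5′ to 3′, with start and stop codons in capitals. TMA7 (YLR262C-A) lies at chrXII:669468-669662 and TMA10 (YLR327C) at chrXII:783127-783387, both on the minus strand.
TMA7: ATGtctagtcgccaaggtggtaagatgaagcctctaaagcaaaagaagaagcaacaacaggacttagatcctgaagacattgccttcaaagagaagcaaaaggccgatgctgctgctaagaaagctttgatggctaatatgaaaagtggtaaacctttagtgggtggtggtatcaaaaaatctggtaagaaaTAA
TMA10: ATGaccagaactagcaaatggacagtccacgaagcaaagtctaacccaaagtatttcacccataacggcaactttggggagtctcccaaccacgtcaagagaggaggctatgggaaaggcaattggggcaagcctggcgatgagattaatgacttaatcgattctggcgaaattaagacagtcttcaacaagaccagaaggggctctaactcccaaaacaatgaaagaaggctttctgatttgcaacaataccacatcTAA

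The 250 bases before each start codon were searched on both strands for 6 short motifs. Those of TMA17 and TMA16 are shown because each holds 2 copies of 1 motif, which few windows do. TMA46 also has 2 matches of 1 motif, which overlap on opposite strands and are described but not shown. Between media TMA16 changed in mRNA and footprints, and TMA17 in footprints but not in mRNA. The stress response element AGGGG, the site of Msn2 and Msn4, was found 2 times before TMA17, at 160 bases before the start codon as its reverse complement and at 63 bases as written. It was found 1 time before TMA108 and not before TMA10, in 18.8% of 5994 windows of this length, and in 2 or more copies in 2.24%. The PAC motif GATGAG, common before ribosome assembly genes, was found 2 times before TMA16, at 76 and 69 bases, and 1 time before TMA46, against 17.0% of windows with any copy and 2.47% with 2 or more. A match describes letters only. The stretches below have the motif in capitals and are written along the gene's own strand. They lie at chrIV:265110-265134 and chrIV:265013-265037 on the minus strand, and chrXV:803581-803606 and chrXV:803588-803613 on the plus strand, and the last pair overlap.
TMA17, far copy: ttcagctcctCCCCTaaaaccgagg
TMA17, near copy: tgacaaaaagAGGGGtaagatcttt
TMA16, far copy: taatagacgaGATGAGagatgagctc
TMA16, near copy: cgagatgagaGATGAGctctttaaag
The RRPE motif AAAAATTTT, found in 6.76% of windows and in 2 or more copies in 1.835%, was in those of TMA19, TMA23 and TMA46. TMA46 had 2 matches, at 158 bases as written and at 157 bases as the reverse complement, which overlap. The heat shock type motif GAANNTTC, in 9.91%, was in that of TMA7. The proteasome element GGTGGCAAA (1.12% of windows) and the Gcn4 motif TGACTC (6.26%) were in no member's window.

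Members spanned more than 2 orders of magnitude in mean mRNA per kilobase in YPD, and less than that in SD mRNA and in footprints of either medium. In YPD, mRNA per kilobase of coding sequence was highest for TMA19, at 3975 ± 622 CPM per kilobase (SD, n = 5), followed by TMA7 at 1450 ± 136, TMA22 at 329 ± 25.5 and TMA17 at 207 ± 15.9. TMA46 followed at 141 ± 8.36, TMA16 at 86.0 ± 12.7, TMA23 at 79.6 ± 9.45, TMA108 at 56.6 ± 2.55 and TMA10 at 21.6 ± 6.84. Neighbours in this order did not overlap in their 5 lysates except TMA16 and TMA23. In SD TMA10 stood in the 6th place with 156 ± 55.7 CPM per kilobase (n = 4), overlapping TMA46 above it and TMA23 below it, and TMA17 and TMA46 also overlapped, as did TMA23 and TMA16.

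**Figure D1:**
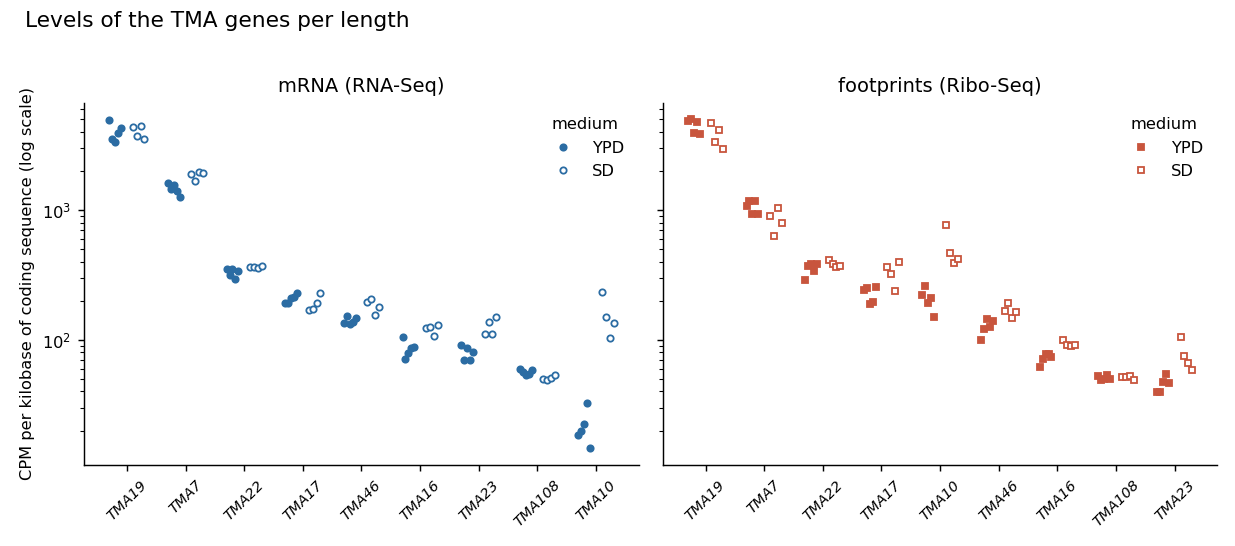
Levels of the 9 TMA genes per length, in mRNA (left) and footprints (right). The y axis is CPM per kilobase of coding sequence on a log scale, and each point is 1 lysate, filled for YPD (n = 5) and open for SD (n = 4). TMA10 is the lowest of the 9 in YPD mRNA, at 21.6 CPM per kilobase, but not in YPD footprints, at 206.

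Footprints per kilobase kept TMA19 (4459 ± 555), TMA7 (1056 ± 122) and TMA22 (354 ± 40.2) as the highest in YPD. TMA10 stood in the 5th place with 206 ± 39.6, overlapping TMA17 (227 ± 32.4), and in SD it was in the 3rd place with 509 ± 174, overlapping TMA7 above it and TMA22 below it. TMA10 thus had far more footprints for its mRNA than the other members. Its mean log2 footprint to mRNA ratio in YPD was 3.23, and only 1 of 5367 genes tested in both assays had a higher one. The other 8 members had mean log2 ratios of -0.81 (TMA23) to 0.17 (TMA19) in YPD, beside a median of -0.89 over all these genes.

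SD was compared with YPD over all strains by edgeR's quasi-likelihood test with Benjamini-Hochberg adjustment over all genes tested. In mRNA, 5 of 9 members rose and none fell: TMA7, TMA10, TMA16, TMA23 and TMA46. Over all 5966 genes tested, 27.7% were called, 14.9% as higher. In footprints 5 members rose (TMA10, TMA16, TMA17, TMA23 and TMA46) and TMA7 fell, where 23.3% of 5369 genes were called, 12.9% as higher and 10.4% as lower. Median log2 fold changes of the 9 were 0.38 in mRNA and 0.35 in footprints, against 0.00 over all genes in both assays. Fewer reads from a gene can mean less RNA per cell or fewer cells that express it, which bulk lysates cannot tell apart. Levels of every member in each lysate are drawn in the plot by gene.

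**Figure D2:**
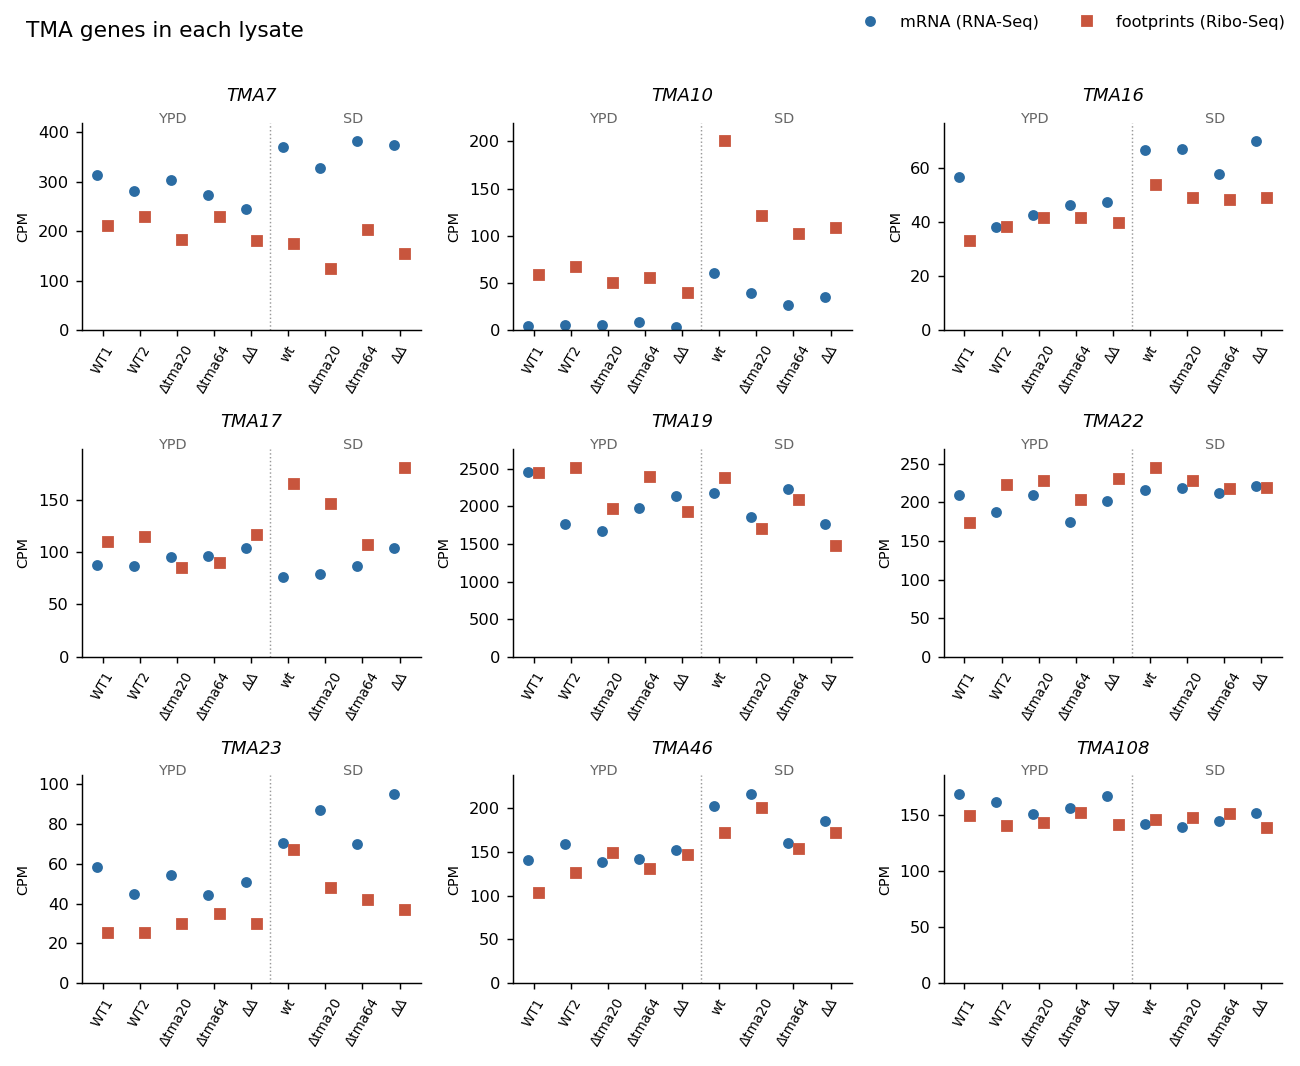
Level of each TMA gene in the 9 lysates, in CPM (y axis, from 0), for mRNA (blue circles) and footprints (red squares). YPD lysates are left of the dotted line and SD lysates right of it, and ΔΔ stands for ΔΔtma20tma64. TMA10 mRNA lies at 3.80 to 8.54 CPM in YPD and at 27.0 to 61.1 in SD, while TMA108 stays between 138 and 168 CPM in both assays.

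TMA10, the paralog of STF2, had the largest medium response of the 9. Its mRNA was at 4.82, 5.17, 5.84, 8.54 and 3.80 CPM in WT1, WT2, Δtma20, Δtma64 and ΔΔtma20tma64 in YPD, and at 61.1, 39.4, 27.0 and 35.2 CPM in wt, Δtma20, Δtma64 and ΔΔtma20tma64 in SD. The media did not overlap, and wt in SD was the highest. The log2 fold change was 2.90 (SE 0.26, 95% interval 2.39 to 3.40), a 7.45-fold rise, with an adjusted p of 2.52e-05 by edgeR. The rise was seen in each strain, from 3.16-fold in Δtma64 to 12.2-fold in wt, and the TMA64 by medium interaction was -0.86 with an adjusted p of 0.675. YPD values rest on 30 to 57 reads per library, against 280 to 651 in SD. Reads on the opposite strand of TMA10 came to 5% to 23.1% of its RNA-Seq reads in YPD and 0.512% to 3.45% in SD, and with unstranded counts the log2 fold change was 2.70.

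TMA10 footprints were at 58.0, 67.2, 49.7, 55.1 and 39.3 CPM in YPD, in the same strain order, and at 199.9, 121, 102 and 109 CPM in SD. The groups again did not overlap. The rise was 2.56-fold (log2 1.36, SE 0.12), with an adjusted p of 1.74e-06 by edgeR. Footprints thus rose less than mRNA. The footprint to mRNA ratio was 12.04, 13.0, 8.503, 6.44 and 10.3 in YPD and 3.27, 3.07, 3.76 and 3.08 in SD. In each strain it was lower in SD, from 0.262 times the YPD value in wt to 0.583 times in Δtma64, and still only 40 of 5367 genes had a higher mean ratio in SD.

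STF2 was at 100.3 to 147 CPM in YPD mRNA and 127 to 210.2 in SD, which overlap, and its mRNA was not called (log2 0.24, adjusted p 0.176 by edgeR). STF2 footprints rose from 111 to 178 CPM in YPD to 198 to 347 in SD (log2 0.83, adjusted p 0.00796 by edgeR). Of the 3 genes of the ATPase inhibitor family, STF2 with INH1 and STF1, 1 rose in mRNA and 2 in footprints. INH1, the inhibitor protein itself, rose by 0.75 in mRNA and 0.70 in footprints on the log2 scale.

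TMA17 encodes a chaperone that binds the proteasome ATPase Rpt6. Its mRNA was at 87.4, 86.5, 95.1, 96.2 and 104 CPM in YPD and 76.3, 78.9, 86.5 and 104 CPM in SD, so the media overlapped and the gene was not called (log2 -0.16, adjusted p 0.123 by edgeR). Its footprints were at 109, 114, 84.7, 89.3 and 116 CPM in YPD and 166, 146, 107 and 181 CPM in SD, where only Δtma64 in SD lay within the YPD range. They rose by 0.54 on the log2 scale (SE 0.16, adjusted p 0.0328 by edgeR), and were higher in SD in 4 of 4 strains, by 1.20-fold to 1.73-fold. This call was lost for 6 of the 9 lysates left out in turn. Among SD lysates, the adjusted p was 0.213 without wt, 0.0502 without Δtma20 and 0.0623 without ΔΔtma20tma64. Among YPD lysates, it was 0.0552 without WT1, 0.0837 without Δtma64 and 0.0516 without ΔΔtma20tma64.

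RPT6 itself lay between 322 and 370.3 CPM in mRNA and 249.7 and 289 CPM in footprints over all 9 lysates, and was not called in either (adjusted p 0.445 and 0.808 by edgeR). Among 13 genes of proteasome assembly, 1 fell in mRNA (RPN14, log2 -0.25) and 1 in footprints (POC4, log2 -0.54), and none rose. Their median log2 fold changes were -0.05 and -0.07. TMA17 did not share its direction with any of these genes that passed.

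General stress targets were listed because TMA10 and TMA17 are held to respond to stress. Of 13 such genes, 5 rose and 2 fell in mRNA, and 2 rose in footprints. HSP12, a membrane-associated small stress protein, rose by 1.39 in mRNA and 2.24 in footprints on the log2 scale, and CTT1, the cytosolic catalase, by 0.54 and 2.22. DDR2, a DNA damage response gene, rose by 1.27 in mRNA and HSP26, a small heat shock chaperone, by 0.98, while PGM2, a phosphoglucomutase, fell by 0.67. The list's median was 0.07 in mRNA and 0.50 in footprints. TMA10, with 2.90 in mRNA, thus stood above each of these 13 genes in size of mRNA change.

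TMA16 and TMA23 act in ribosome assembly, TMA16 on precursors of the large subunit and TMA23 in the nucleolus on the small subunit. TMA16 mRNA was at 56.6, 38.3, 42.5, 46.3 and 47.3 CPM in YPD and 66.7, 67.2, 57.9 and 69.9 CPM in SD, without overlap (log2 0.49, SE 0.12, adjusted p 0.0115 by edgeR). Its footprints were at 32.9, 38.2, 41.6, 41.7 and 39.6 CPM in YPD and 53.9, 49.1, 48.1 and 49.1 CPM in SD, again without overlap (log2 0.35, SE 0.10, adjusted p 0.0218 by edgeR). Both assays thus moved by similar amounts, and the footprint to mRNA ratio overlapped between media. The footprint call was lost without wt in SD (adjusted p 0.108) and without ΔΔtma20tma64 in YPD (adjusted p 0.0576).

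TMA23 mRNA was at 58.2, 44.8, 54.5, 44.5 and 51.0 CPM in YPD and 70.2, 87.0, 70.1 and 94.9 CPM in SD (log2 0.64, SE 0.10, adjusted p 0.00138 by edgeR). Its footprints were at 25.0, 25.0, 29.9, 34.7 and 29.5 CPM in YPD and 67.1, 48.0, 41.8 and 36.9 CPM in SD (log2 0.70, SE 0.17, adjusted p 0.0107 by edgeR). Neither assay overlapped between media. Footprints were 2.68-fold higher in SD in wt, 1.60-fold in Δtma20, 1.20-fold in Δtma64 and 1.25-fold in ΔΔtma20tma64. The TMA64 by medium interaction for this gene was -0.84 with an adjusted p of 0.481, so the difference between strains did not pass.

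Of 25 further factors of 60S precursors, 16 rose in mRNA and 15 in footprints, and none fell. Their medians were 0.36 and 0.37 on the log2 scale. RPF2, a member of the 5S RNP assembly complex, rose by 0.64 in mRNA, NOP15 by 0.63, ALB1 by 0.54 and RRP1 by 0.52. In footprints the largest were RRS1 (0.63), REI1 (0.62), MAK16 (0.60) and RRP1 (0.58). Of 30 genes of the small subunit processome and late small subunit assembly, 17 rose and 1 fell in mRNA, and 5 rose in footprints, with medians of 0.29 and 0.20. SNU13, a box C/D snoRNP protein, rose by 0.70 in mRNA and LTV1, a late 40S factor, by 0.63, and LTV1 also rose in footprints by 0.73. TMA16 and TMA23 thus moved in the direction of most of the assembly genes that passed, whose share called as higher in mRNA was above the 14.9% of all genes.

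Among cytosolic ribosomal protein genes, calls differed between the assays. Of 138, 12 rose and 3 fell in mRNA, while 1 rose and 42 fell in footprints, with medians of 0.06 and -0.12. TMA46, whose product joins the GTPase Rbg1 on translating ribosomes, was at 141, 158, 138, 142 and 152 CPM in YPD mRNA and 202, 215, 160.3 and 185 CPM in SD (log2 0.38, SE 0.09, adjusted p 0.00885 by edgeR). Its footprints were at 103, 125.9, 149, 129.9 and 146 CPM in YPD and 171, 199, 153 and 171 CPM in SD (log2 0.38, SE 0.09, adjusted p 0.00949 by edgeR). No lysate overlapped between media in either assay, and footprints followed mRNA with the same size of change. Without wt in SD the footprint call was just lost (adjusted p 0.0503).

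RBG1 footprints rose as well, from 112 to 163 CPM in YPD to 175 to 239 CPM in SD (log2 0.54, adjusted p 0.00464 by edgeR). Those of its relative RBG2 rose by 0.44 (adjusted p 0.0109). RBG1 mRNA overlapped between media, at 96.5 to 131 and 112 to 143 CPM, and was not called (adjusted p 0.267). Of the 5 listed genes of this complex and its partners, these 2 passed in footprints and none in mRNA.

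TMA108, related to aminopeptidases, was the steadiest member. Its footprints lay at 149, 140.3, 143, 151 and 141 CPM in YPD and 146, 147, 151 and 138 CPM in SD, with a log2 fold change of 0.01 (95% interval -0.15 to 0.16). Its mRNA lay at 151 to 168 CPM in YPD and 139.6 to 152 CPM in SD, which overlap, and was not called (log2 -0.16, adjusted p 0.107 by edgeR). Among 14 other nascent chain and ribosome-bound factors, 2 rose and 1 fell in mRNA, and none passed in footprints. ARD1 and EGD2, subunits of an N-terminal acetyltransferase and of the nascent polypeptide-associated complex, rose by 0.33 and 0.29, and BTT1, an alternative subunit of the latter, fell by 0.56.

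TMA22 and TMA19 did not pass between media. TMA22, the partner of the deleted TMA20, had mRNA at 209, 188, 209.6, 174 and 201 CPM in YPD and 216, 218, 212 and 222 CPM in SD, just without overlap. Its log2 fold change was 0.14 (95% interval 0.01 to 0.28), with an unadjusted p of 0.065 and an adjusted p of 0.152 by edgeR. The interval is a normal approximation, narrower than that test allows. TMA19 mRNA lay at 1678 to 2462 CPM in YPD and 1759.7 to 2228 CPM in SD (log2 0.01, 95% interval -0.22 to 0.24). TMA19 footprints were lower in SD in 4 of 4 strains, at 0.769 to 0.957 times the YPD level, with an adjusted p of 0.0599. Oxidative defence genes were listed beside TMA19, as TCTP proteins are tied to oxidative stress. Of 11, 2 rose and 3 fell in mRNA, and 2 rose and 4 fell in footprints, among them TSA1, a peroxiredoxin (log2 -0.72 in footprints), and AHP1, another one (0.67 in mRNA).

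TMA7 was the 1 member called in both assays with opposite directions. Its mRNA was at 313, 281, 303, 272 and 245 CPM in YPD and 369.8, 327, 381 and 374 CPM in SD, without overlap (log2 0.38, SE 0.09, adjusted p 0.00999 by edgeR). Its footprints were at 210.4, 228, 182, 229 and 180.4 CPM in YPD and 175, 123, 202 and 155 CPM in SD, where only Δtma64 in SD lay within the YPD range (log2 -0.31, SE 0.08, adjusted p 0.0155 by edgeR). mRNA was higher in SD in 4 of 4 strains and footprints were lower in 4 of 4. The footprint call was lost without Δtma20 in SD (adjusted p 0.0778), the shallowest library.

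Fewer footprint calls between media were made without the shallow SD libraries. Without wt in SD, 3 of the 6 members passed (TMA7, TMA10 and TMA23), and without both wt in SD and Δtma20 in SD, which leaves 2 SD lysates, 1 did. That gene was TMA10, at a log2 fold change of 1.175 (adjusted p 0.000438 by edgeR). In mRNA 3 of the 5 passed under the last setting (TMA7, TMA10 and TMA23), while TMA16 had an adjusted p of 0.181 and TMA46 of 0.278. The share of all genes called in these smaller fits is not given here. The drop thus cannot be read as particular to the members.

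**Figure D3:**
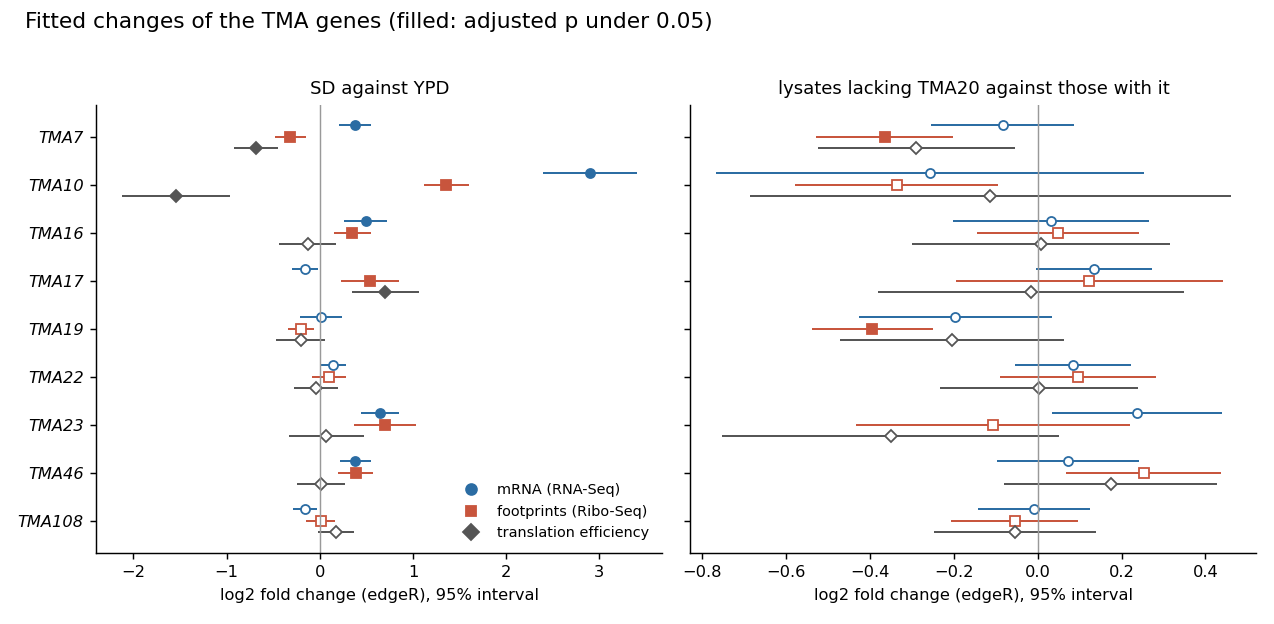
Fitted log2 fold changes of the 9 TMA genes for SD against YPD (left) and for lysates lacking TMA20 against those with it (right). Points are edgeR estimates in mRNA, footprints and translation efficiency, and filled points have an adjusted p under 0.05. Bars are 95% intervals by a normal approximation, narrower than the test allows, and the x axes differ in range. TMA10 moves by 2.90 in mRNA and 1.36 in footprints between media, and TMA7 and TMA19 alone are filled for TMA20, in footprints.

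Translation efficiency, the change in footprints beyond that in mRNA, was tested as the interaction of the medium with the assay over both kinds of library. TMA17 rose and TMA7 and TMA10 fell, 3 of 9, where 6.59% of 5935 genes were called, 4.40% as higher and 2.19% as lower. TMA10 fell by 1.54 on the log2 scale (SE 0.30, adjusted p 0.00586 by edgeR) and TMA7 fell by 0.68 (SE 0.12, adjusted p 0.00194). TMA17 rose by 0.70 (SE 0.18, adjusted p 0.028). The 6 other members lay between -0.21 (TMA19) and 0.17 (TMA108), none of them called.

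The TMA7 ratio was 0.673, 0.811, 0.601, 0.842 and 0.736 in YPD and 0.473, 0.378, 0.529 and 0.414 in SD, without overlap, and in each strain it was 0.564 to 0.637 times as high in SD. TMA17 had 1.25, 1.32, 0.891, 0.928 and 1.12 in YPD and 2.17, 1.85, 1.24 and 1.73 in SD, where Δtma64 in SD fell within the YPD range. In an exact two-sided permutation test over lysates, TMA7 and TMA10 each reached p = 0.00794, a floor set by the number of lysates, and TMA17 gave p = 0.0317. That test takes all 9 lysates as interchangeable, and 81 such tests were computed over the members. The TMA17 call was lost when any of 5 lysates was left out, with adjusted p values of 0.169 for wt in SD, 0.0789 for Δtma20 and 0.0543 for ΔΔtma20tma64 in the same medium, and of 0.0664 for Δtma20 and 0.0654 for Δtma64 in YPD. Without both shallow SD lysates none of the 3 passed, with TMA7 at an adjusted p of 0.0514, and the share of all genes called in that fit is not given here.

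**Figure D4:**
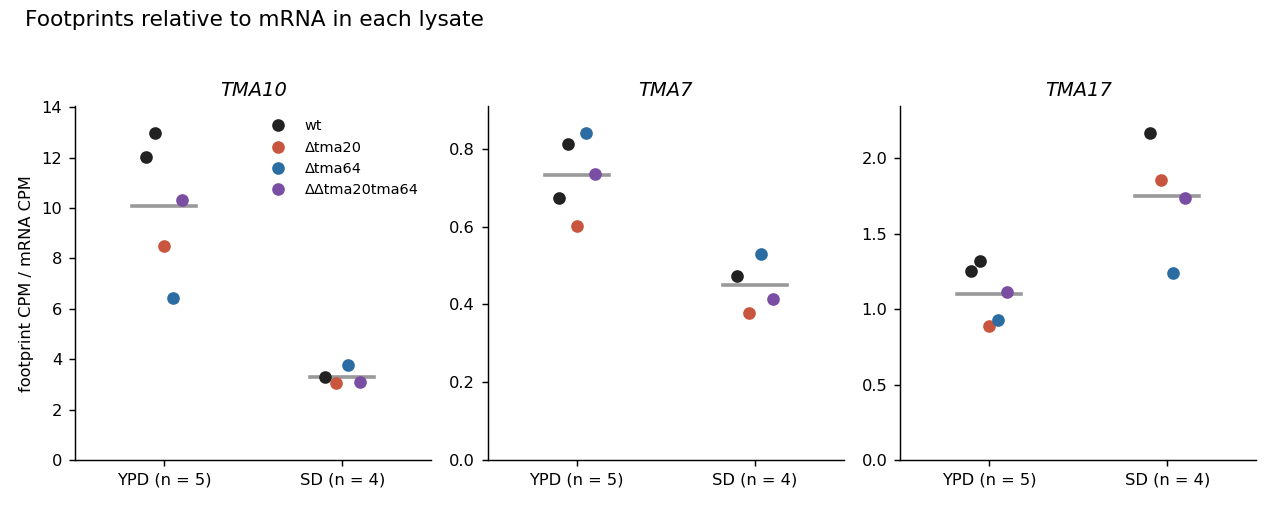
Footprint to mRNA ratio of TMA10, TMA7 and TMA17 in each lysate, from 0, by medium. Points are lysates coloured by strain and grey lines are means. The TMA10 ratio lies at 6.44 to 13.0 in YPD and 3.07 to 3.76 in SD, the TMA7 ratio at 0.601 to 0.842 and 0.378 to 0.529, and the TMA17 ranges overlap through Δtma64 in SD.

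The other genes fixed as lists showed few calls in translation efficiency. None of 25 factors of 60S precursors passed, while 28 of 138 ribosomal protein genes fell and 1 rose, and 3 of 13 stress targets rose: CTT1 (log2 1.68), TPS2 (0.87) and TPS1 (0.74), the latter pair for trehalose synthesis. TMA17 moved in the direction of these stress targets and TMA10 in the opposite one. SUI1, which encodes the initiation factor eIF1 and shares a domain with Tma22, fell by 0.49 (adjusted p 0.00403 by edgeR).

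Lysates lacking TMA20, from Δtma20 and ΔΔtma20tma64, were then compared with those that have it, in a model with both deletions and the medium. In footprints TMA7 and TMA19 fell, 2 of 9, and no member rose, where 3.95% of 5369 genes were called, 1.58% as higher and 2.37% as lower. In mRNA and in translation efficiency no member passed, where 0.0838% (0.0503% higher, 0.0335% lower) and 0.0674% (0.0168% higher, 0.0505% lower) of genes did. By DESeq2 also none passed in either, and 1 of 9 had an unadjusted p under 0.05 in each by edgeR, beside 600 of 5966 and 419 of 5935 genes. The median of the 9 in footprints was -0.06, against 0.00 over all genes. Other than wt in YPD each strain had 1 lysate per medium. The p-values thus rest on the spread of these lysates around the model, and not on that between replicate cultures of a deletion strain.

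TMA19, the TCTP homolog and most abundant member, had footprints at 2445, 2512 and 2389 CPM in WT1, WT2 and Δtma64 in YPD, and 1968 and 1922 CPM in Δtma20 and ΔΔtma20tma64. In SD they were at 2372 and 2083 CPM in wt and Δtma64, and 1693 and 1477 CPM in Δtma20 and ΔΔtma20tma64. Every lysate without TMA20 was thus below every lysate with it, within each medium and over both. The log2 fold change was -0.39 (SE 0.07, 95% interval -0.54 to -0.25), 0.761 times the level with TMA20, with an adjusted p of 0.0125 by edgeR, and the exact two-sided permutation p over lysates was 0.00794. The mean was 0.794 times as high in YPD and 0.712 times in SD. The adjusted p was 0.0552 without Δtma20 in SD, 0.0509 without Δtma64 in SD, and 0.164 with YPD lysates alone.

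**Figure D5:**
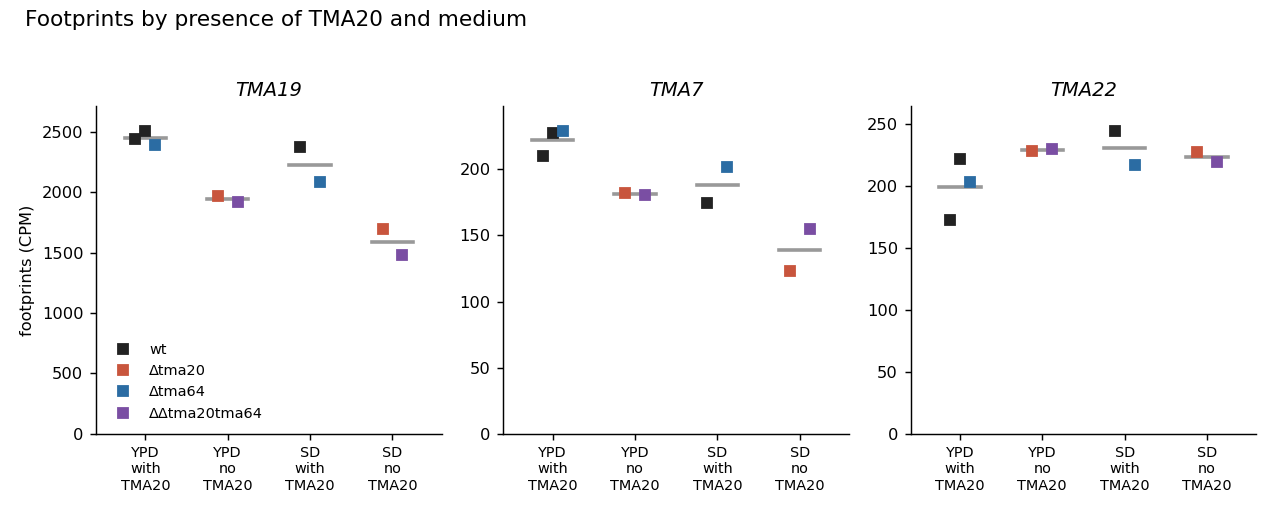
Footprints of TMA19, TMA7 and TMA22 in CPM, from 0, by medium and by presence of TMA20. Points are lysates coloured by strain, grey lines are means of 2 or 3 lysates. Within each medium TMA19 and TMA7 are lower without TMA20, with no overlap. TMA22 is higher without TMA20 in YPD, at 228 and 230.1 CPM against 173 to 222, and overlaps in SD.

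TMA19 mRNA was at 1678 to 2139.9 CPM without TMA20 and 1764 to 2462 CPM with it, so these ranges overlapped. Its log2 fold change of -0.20 (95% interval -0.43 to 0.03) did not pass, nor did that in translation efficiency (-0.20, 95% interval -0.47 to 0.06). Neither layer alone thus passed the test, at the spread between these lysates. In SD lysates alone, from 2 lysates against 2, the TMA19 mRNA change of -0.29 passed (adjusted p 0.00481 by edgeR). A rise of TMA23 mRNA by 0.37 passed there too (adjusted p 0.00223). The share of all genes called in that fit is not given here. Over all lysates the adjusted p by edgeR was 0.642 for TMA19 mRNA and 0.488 for TMA23 mRNA.

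TMA7 footprints were at 182 and 180.4 CPM without TMA20 and at 210.4 to 229 CPM with it in YPD, and at 123 and 155 CPM against 175 and 202 CPM in SD. The groups did not overlap within a medium but did over both media. The log2 fold change was -0.37 (SE 0.08, adjusted p 0.0278 by edgeR). Leaving out 1 YPD lysate ended this call for WT2 (adjusted p 0.067), Δtma64 (0.0564) and ΔΔtma20tma64 (0.0988), and leaving out 1 SD lysate ended it for Δtma20 (0.11) and Δtma64 (0.125). It was also lost with YPD lysates alone (0.252) and without both shallow SD lysates (0.0762).

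TMA22, whose product binds Tma20, did not pass in any comparison of this study. Its footprints were at 228 and 230.1 CPM without TMA20 and 173, 222 and 203 CPM with it in YPD, and at 228 and 219 CPM against 245 and 217 CPM in SD. The groups did not overlap in YPD, where the mean was 1.15 times as high without TMA20, and overlapped in SD. Over both media the difference was 0.10 on the log2 scale in footprints (95% interval -0.09 to 0.28), 0.08 in mRNA (-0.05 to 0.22) and 0.00 in translation efficiency (-0.23 to 0.24). These intervals are normal approximations, narrower than the edgeR test allows, so 0.28 is no firm limit on a change of TMA22 footprints.

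The remaining members showed no call for TMA20. TMA46 footprints were higher by 0.25 (95% interval 0.07 to 0.44, adjusted p 0.152 by edgeR) and TMA10 footprints lower by 0.34 (adjusted p 0.145), which passed only without Δtma64 in SD (adjusted p 0.0455). TMA16, TMA17, TMA23 and TMA108 lay between -0.11 and 0.12. Of 8 listed recycling and termination factors, 2 rose in footprints: RLI1, the ABC-type ATPase that splits ribosomes (log2 1.23), and HCR1, an eIF3 subunit (0.44). Among the other lists NAS6, a proteasome assembly chaperone, fell by 0.58 and HSP104, a disaggregase, by 0.46, while 9 ribosomal protein genes rose and 1 fell of 138.

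Loss of TMA64 gave no call among the members in mRNA, footprints or translation efficiency by edgeR or DESeq2, where 0.0168%, 0.0559% and 0.0168% of genes were called. At an unadjusted p under 0.05 there were 1, 1 and 0 members, against 133 of 5966, 280 of 5369 and 134 of 5935 genes. These were TMA17 mRNA, higher by 0.21 (95% interval 0.07 to 0.35), and TMA10 footprints, lower by 0.41 (95% interval -0.65 to -0.17, adjusted p 0.911). In SD lysates alone TMA10 (-0.59, adjusted p 0.00807) and TMA23 (-0.55, adjusted p 0.0378) passed in footprints and TMA17 (0.29, adjusted p 0.0397) and TMA46 (-0.28, adjusted p 0.0361) in mRNA, each from 2 lysates against 2. The share of all genes called in these SD fits is not given here.

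Single strains gave 2 calls, both in footprints of ΔΔtma20tma64 against wt, where 3.63% of genes were called. TMA10 fell by 0.72 (SE 0.16, adjusted p 0.0306 by edgeR) and TMA19 fell by 0.50 (SE 0.10, adjusted p 0.0176). Against wt, TMA19 was at -0.39 in Δtma20 (adjusted p 0.0895 by edgeR, 0.0447 by DESeq2), where 0.671% of genes were called. TMA10 was at -0.48 in Δtma20 and -0.54 in Δtma64, neither called. In mRNA and translation efficiency no member passed in any strain by edgeR or DESeq2, where at most 0.0670% and 0.0842% of genes were called by edgeR. At an unadjusted p under 0.05 there was 1 member in mRNA of ΔΔtma20tma64, beside 531 of 5966 genes. In translation efficiency there was 1 in Δtma20 and 1 in Δtma64, beside 312 and 194 of 5935 genes. All 3 strains share the wt lysates as controls, and whether ΔΔtma20tma64 differed from the single mutants was not tested here. The TMA19 call was lost without ΔΔtma20tma64 in SD (adjusted p 0.218), and the TMA10 call for 6 lysates left out in turn. Its adjusted p was then 0.068 for WT2, 0.0632 for Δtma20 and 0.155 for ΔΔtma20tma64 among YPD lysates, and 0.0768 for wt, 0.0619 for Δtma20 and 0.17 for ΔΔtma20tma64 among SD lysates.

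No member passed for the interaction of both deletions or of a deletion with the medium, where 0.149% of genes were called in footprints for TMA20 by TMA64 and 0.112% for TMA20 by medium (0.0373% higher, 0.0745% lower). At an unadjusted p under 0.05 there was 1 member in footprints for TMA20 by TMA64 and 1 for TMA64 by medium, beside 461 and 419 of 5369 genes. In translation efficiency there was again 1 for each, beside 238 and 379 of 5935 genes, and in mRNA there were 0. The nearest was TMA17 footprints for TMA20 by TMA64, at 0.87 (SE 0.18, adjusted p 0.0849 by edgeR). In SD its footprints were at 166 CPM in wt, 146 and 107 CPM in Δtma20 and Δtma64, and 181 CPM in ΔΔtma20tma64. In YPD they were at 109 and 114 CPM in wt, 84.7 and 89.3 CPM in the single mutants and 116 CPM in ΔΔtma20tma64. Both single mutants were thus below wt in each medium and the double mutant was above it. This interaction passed by DESeq2 (adjusted p 0.0368), with no filter on low counts (0.037), without wt in SD (0.00919) and without both shallow SD lysates (0.00863). Among the listed genes STF2 (0.96, adjusted p 0.0477 by edgeR) and TPS1 (0.93, adjusted p 0.0425) passed for the same interaction. Of all 5369 genes 8 were called for it, 8 as higher and 0 as lower, so a direction shared with TMA17 carries no information.

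Levels of some members followed each other over the 9 lysates. TMA16 and TMA23 had a Pearson r of 0.91 in mRNA and 0.91 in footprints of log2 CPM, and TMA16 and TMA46 one of 0.89 in footprints. TMA10 and TMA108 ran against each other in mRNA (r = -0.87), as did TMA7 and TMA46 in footprints (r = -0.84). All points share the split into 2 media, so these values describe the lysates and carry no test.

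The genes most like each member were taken by Pearson r over the 9 lysates among 5383 genes in mRNA and 4853 in footprints. For TMA23 footprints they were PWP1 (0.99), BUD23 (0.99) and DRS1 (0.98), and for TMA16 footprints NOP4 (0.99), SPB1 (0.98) and SGD1 (0.98), while in mRNA they were YOR031W (0.99), SLM2 (0.99) and COX2 (0.99) for TMA23 and TIF34 (0.97), CIS3 (0.97) and XPT1 (0.96) for TMA16. TMA46 footprints were closest to TRM8 (0.98), NOP15 (0.97) and NOP10 (0.96), and its mRNA to PRP2 (0.98), NAF1 (0.97) and TYW1 (0.96). TMA17 footprints were closest to GOR1 (0.95), TPS1 (0.95) and PET9 (0.95), and TMA19 footprints to TPI1 (0.98), VMA6 (0.98) and GND1 (0.98). For TMA7 footprints the list was CTK1, BNA7 and POF1 (0.97 to 0.98) and for TMA10 footprints VPS60, RAD4 and MFA1 (0.97 to 0.98). TMA10 mRNA was closest to YJL144W (0.99), SSS1 (0.98) and YHR097C (0.98), and TMA7 mRNA to YDL158C (0.98), YDL085C-A (0.96) and YLR146W-A (0.95).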

How the data were processed

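The authors trimmed reads with cutadapt 1.18 and aligned them to genome build R64-1-1 with STAR 2.5.3a, per the submitters' processing notes and the study's methods, and deposited raw read counts per gene for each of 18 libraries, without normalization. RNA came from oligo(dT) beads, and footprints were monosome fragments left by RNase I. Counts on the sense strand were used here, over the 6713 open reading frames, and reads assigned to no feature entered neither library sizes nor tests. These made up 18.8% to 39.1% of RNA-Seq reads and 0.805% to 1.58% of Ribo-Seq reads. Every per-sample column was used. Open reading frame counts ran from 1668588 to 23532664 per library, so counting error in footprints is largest for Δtma20 in SD and wt in SD. Without molecular identifiers the counts are of reads and not of separate molecules.

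Groups follow the labels. Genes passing filterByExpr (minimum count 10) were TMM-normalized and tested with edgeR 4.0.16 in R 4.3.3 (glmQLFit, glmQLFTest), with Benjamini-Hochberg adjustment over all genes and a threshold of 0.05. The model held loss of TMA20, loss of TMA64 and medium over all 9 lysates. Interactions and single strains were fitted separately, and translation efficiency as the interaction of each term with the assay. Standard errors were derived from the fold change and its F statistic, and log2 CPM for correlations used a prior count of 2. DESeq2 1.42.0 was an alternative, beside other size factors, no filter, unstranded counts, 1 medium alone and each lysate left out. The edgeR fits were tested on simulated data with 200 changed genes. Exact permutation tests and motif searches used Python 3.11.15 with RefSeq R64 coordinates and sequence.

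Both assays used portions of 1 lysate, which pairs them by the study's methods. Deviations of RNA-Seq and Ribo-Seq libraries of 1 lysate from a fit of strain and medium correlated at 0.0735 to 0.282 over 5367 genes. The own lysate gave the highest r in 5 of 9. In that fit the 2 lysates of a deletion strain mirror each other and have the same r (0.1215 for Δtma20, 0.1072 for Δtma64 and 0.2817 for ΔΔtma20tma64). The 9 lysates are thus not 9 separate checks of the pairing. Members, gene lists and tests were chosen with earlier results of these data known. All 9 members are named. Of each list, up to 4 genes with the largest change among those past the threshold are named, besides genes whose products pair with a member's and genes singled out after their values were seen.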

Additional observations from a re-analysis of the deposited data

Results flagged for a closer look

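Of 54 groups of 4 or 5 lysates checked for 1 value far from the rest (9 members, 3 measures, 2 media), 1 held such a value, and chance gives about 1 in 20. It was the footprint to mRNA ratio of TMA22 in YPD, at 0.827 in WT1, while the other 4 YPD lysates lay at 1.09 to 1.182. WT1 had TMA22 footprints at 173 CPM, the lowest of the 9 lysates, and mRNA at 209 CPM, within the range of the other YPD lysates.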

How the results depend on the processing

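For the 29 member results called over all lysates or under any alternative, 427 values were recomputed, of which 369 kept their side of the threshold, 44 lost a call and 14 gained one. No value of the 18 results called over all lysates changed sign. Over all 243 member results, called or not, 306 of 3564 recomputed values did. The rise of TMA10 in SD passed in mRNA (log2 2.39 to 3.19) and in footprints (1.175 to 1.50) under every alternative run, as did that of TMA7 and TMA23 in mRNA. With the lysate as a replicate block, 3 members were called for translation efficiency between media, as without it, at log2 -0.69 for TMA7, -1.52 for TMA10 and 0.69 for TMA17, and 0 for the other terms, so the block changed no count of calls. In SD lysates alone, 2 members passed for TMA20 in mRNA and 2 for TMA64 in each assay, against 0 over all lysates. Those fits compare 2 lysates with 2. The share of all genes called in them is not given here, so these counts cannot be set against a background. In YPD lysates alone 0 members passed for TMA20 in footprints, against 2 over all lysates. Without both shallow SD lysates, a setting chosen after seeing the data, calls between media went from 5 to 3 in mRNA, from 6 to 1 in footprints and from 3 to 0 in translation efficiency. Footprint calls there went from 2 to 1 for TMA20, from 2 to 0 for single strains and from 0 to 1 for interactions. That 1 interaction, TMA17 for TMA20 by TMA64, also passed by DESeq2 (1 call) and with no filter (1 call). With each lysate left out in turn, footprint calls ranged from 0 to 2 for TMA20, from 3 to 6 for the media, from 0 to 1 for interactions and from 0 to 2 for single strains. Fewer samples enter these fits, and the cause of each change was not tested. For the fits with lysates left out, too, the share of all genes called is not given here. Their counts thus cannot be set against a background. TMA10 mRNA in YPD rests on 30 to 57 reads per library, which limits its ratio there.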
